A study of Mus musculus with 4 samples.

Results

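Genes used to mark or regulate hair follicle stem cells, 9 in all, were followed through all 4 single-nucleus RNA libraries of a mouse skin wound study: Lgr5, Lgr6, Sox9, Tcf7l1, Tbx1, Nfatc1, Lhx2, Gli2 and Cd34. Each was found by its symbol, 1 row per gene, so 9 of the 32285 genes listed in each library were taken. The label holds for only some nuclei. In intact skin most counts of Lgr5, Tcf7l1, Gli2 and Cd34 lay in fibroblast-like nuclei, which held 54.1% and 44.7% of all UMIs. Only 1 keratinocyte-like sub-cluster, of 82 nuclei, had counts of all 9 in both libraries. The far larger set of fibroblast-like nuclei (3225 and 3127) also had counts of all 9, so such counts alone do not mark follicular nuclei. All skin came from the backs of wild type C57BL/6 mice, an inbred strain, aged 8 weeks. The wounded group was the skin of 2 mice taken 1 day after an excision through the full thickness of the skin, and the unwounded group was intact skin of 2 other mice, with 1 library per mouse. No treatment other than wounding and no transgene is given, and wounded and unwounded skin share strain, genotype and age. The comparison asks how transcripts of nuclei differ on the first day of repair.

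Hair follicles renew from stem cells of the bulge, a part of the outer root sheath, and from the hair germ beneath it, while stem cells of the isthmus and the interfollicular epidermis maintain the upper follicle and the surface. Wnt signals, raised by R-spondins through Lgr receptors, and Hedgehog signals from Shh drive these cells into growth, whereas BMP signals and calcineurin-NFAT signalling hold them quiet. After injury, bulge and isthmus cells are known to send progeny into the healing epidermis. LGR5 and LGR6 are R-spondin receptors, the first a mark of lower bulge and hair germ cells and the second of isthmus and interfollicular cells. TCF7L1 is a Wnt effector that mostly represses its targets, and GLI2 is the main activating transcription factor of Hedgehog signalling. SOX9, LHX2, TBX1 and NFATC1 are transcription factors of the bulge, and NFATC1 also acts in lymphatic vessel and heart valve development. CD34 is a surface glycoprotein of bulge cells that blood vessels and dermal fibroblasts also carry.

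The genes span very different lengths, which matters below. In GRCm38 (GENCODE vM21), Gli2 covers 219 kb of chromosome 1 (118834132 to 119053619, minus strand), Lgr6 covers 122 kb of chromosome 1 (134983301 to 135105276, minus), and Cd34 covers 22.5 kb of chromosome 1 (194938819 to 194961279, plus). Lhx2 covers 30.5 kb of chromosome 2 (38339281 to 38369733, plus), Tcf7l1 covers 163 kb of chromosome 6 (72626378 to 72789254, minus), and Lgr5 covers 137 kb of chromosome 10 (115450311 to 115587780, minus). Sox9 is only 5.54 kb long (chromosome 11, 112782224 to 112787760, plus), and Tbx1 covers 9.69 kb of chromosome 16 (18580979 to 18590671, minus).

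Of the 9 genes, 6 had a promoter in the RefSeq table of GRCm38.p6, 8 promoters in all. The 250 bases before the start that RefSeq gives are shown for Cd34 and Tcf7l1, which had the strongest falls in wounded skin, and for Lgr6, which moved apart from them; capitals mark a motif match. The windows lie at chr1:194938571-194938820 (plus strand, Cd34), chr6:72789046-72789295 (minus, Tcf7l1) and chr1:135105277-135105526 (minus, Lgr6). The RefSeq start of Tcf7l1 lies inside the GENCODE span above, so most of its window is within the gene as GENCODE draws it, and the Cd34 window passes the GENCODE start by a few bases.
Cd34: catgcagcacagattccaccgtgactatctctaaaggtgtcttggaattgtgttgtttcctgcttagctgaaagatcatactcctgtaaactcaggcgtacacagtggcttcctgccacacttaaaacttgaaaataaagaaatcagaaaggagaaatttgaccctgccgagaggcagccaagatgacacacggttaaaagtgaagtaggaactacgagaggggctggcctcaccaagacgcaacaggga
Tcf7l1: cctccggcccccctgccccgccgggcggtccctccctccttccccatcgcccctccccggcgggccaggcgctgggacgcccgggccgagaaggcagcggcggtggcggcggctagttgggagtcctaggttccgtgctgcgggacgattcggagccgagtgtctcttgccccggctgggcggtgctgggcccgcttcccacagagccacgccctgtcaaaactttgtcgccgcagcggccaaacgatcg
Lgr6: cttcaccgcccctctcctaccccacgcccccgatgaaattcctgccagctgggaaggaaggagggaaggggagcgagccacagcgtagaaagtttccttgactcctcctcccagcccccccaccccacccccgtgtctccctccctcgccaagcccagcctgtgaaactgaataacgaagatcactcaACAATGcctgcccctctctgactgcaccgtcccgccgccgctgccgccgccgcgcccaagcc
Motifs were searched on both strands in the 8 windows: CTTTGA (TCF/LEF), GACCACC (GLI), TAATTA (LIM homeodomain) and ACAATG (SOX). They were present in 13.8%, 2.34%, 4.84% and 10.7% of the 32851 mouse promoter windows of this length, in that order, and the letters of 1 motif do not contain those of another. The only match among the 8 windows was ACAATG in Lgr6, starting at position -62. G and C made up 46.4% of the Cd34 window, 73.6% of the Tcf7l1 window and 65.2% of the Lgr6 window, against a median of 52.4% over all windows. A match or its lack describes letters in these windows and not binding.

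The wounded libraries stood apart from the unwounded ones before any of the 9 genes was considered. They held 2297 and 3706 nuclei with 1189262 and 1350822 molecules (UMIs), at a median of 360 and 303 UMIs per nucleus, against 6575 and 9001 nuclei with 8275090 and 6475744 UMIs, at a median of 907 and 469, in the unwounded libraries. Filters on genes and mitochondrial UMIs kept 2385 of 4635 and 4330 of 18026 deposited barcodes of the wounded libraries. The same filters kept 6963 of 6965 and 9770 of 9840 barcodes of the unwounded ones. Barcodes left after these filters and doublet removal are called nuclei here. Malat1, an RNA kept in nuclei, was not counted in 74.8% and 60.7% of the wounded barcodes and was counted in every unwounded barcode. The 1468 olfactory and vomeronasal receptor genes, which serve sensory neurons of the nose, summed to 7067 and 6535 CPM (the usual scaling of UMI counts to a common library total) in wounded skin and to 94.5 and 132 CPM in unwounded skin. The density of these genes per kilobase was therefore taken as the level that gene length alone gives in each library. Among 3669 coding genes of at least 5 kb and under 1 CPM in unwounded skin, the median ratio of observed to length-expected level was 0.959 and 0.987 in the wounded libraries, and the 99th percentile was 5.02 and 5.47. Between 3 and 27 barcodes were shared by a pair of libraries, at most 0.411% of either. Fibroblast markers, all 7 of 7 with counts in each library, summed to 557 and 687 CPM in wounded skin against 10904 and 11230 CPM in unwounded skin. Basal keratinocyte markers, 8 of 8 with counts, summed to 989 and 1182 CPM in wounded skin and 1085 and 1007 CPM in unwounded skin.

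Over all nuclei, in the fit with TMM scaling, 7 of the 9 genes were lower and 2 were higher in wounded skin. CPM values in this report carry no TMM factors, and the mean CPM of Gli2 was 89.3 in wounded and 87.4 in unwounded skin. In the wounded libraries each of the 9 lay near the level its length alone gives. Cd34 and Tcf7l1 showed the deepest falls, Lhx2 and Lgr6 the rises. In the quasi-likelihood test of edgeR, adjusted by Benjamini-Hochberg over every gene tested, all 9 passed 0.05, but so did 84.2% of the 20930 genes tested (46.9% higher and 37.3% lower in wounded skin), so the number called says little about these genes. With TMM scaling the log2 fold change had a median of 0.39 over the genes tested and of -1.55 over the 9. The alternatives covered different sets of genes. The median was 1.94 over 29366 genes with DESeq2, run without the filter on low counts, and 1.60 over 29366 genes in edgeR without that filter. It was -0.63 over 16380 genes once length-expected counts were subtracted. Of the 20930 genes tested 9819 were called higher and 7810 lower, against 5282 and 6787 after that subtraction. The calls were 11222 and 5816 with DESeq2 (28521 genes with an adjusted p) and 13693 and 8511 in edgeR without the filter. In these sums over all nuclei, fewer nuclei of a type and less RNA per nucleus cannot be told apart.

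Of the R-spondin receptors, Lgr5 had 124 and 141 CPM in the wounded libraries and 255 and 195 CPM in the unwounded ones. The groups did not overlap, and the log2 fold change, wounded over unwounded, was -1.55 ± 0.15 (SE, n = 2 mice each, edgeR adjusted p = 4.85e-06). Lgr5 was the gene of the 9 that stood farthest above its length-expected level in wounded skin, at 1.63 and 2.01 times. Lgr6 went the other way, with 85.8 and 74.0 CPM in wounded skin against 31.5 and 29.0 CPM in unwounded skin. Its log2 fold change was 0.61 ± 0.17 (adjusted p = 0.0065, edgeR), and its wounded level was 1.28 and 1.19 times the length-expected one. After length-expected counts were subtracted, the log2 fold change of Lgr6 was -0.24 (adjusted p = 0.513, edgeR), so its direction differed between these settings.

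Tcf7l1, the Wnt-pathway repressor, reached 115 and 109 CPM in wounded skin and 456 and 383 CPM in unwounded skin, with every wounded value below every unwounded one. The log2 fold change was -2.69 ± 0.14 (adjusted p = 7.10e-08, edgeR), and 1.28 and 1.31 times the length-expected level remained in the wounded libraries. Gli2, the Hedgehog effector and the longest of the 9 genes, had 95.02 and 83.7 CPM in wounded skin and 89.8 and 85.1 CPM in unwounded skin. Those ranges overlapped. Its log2 fold change of -0.76 ± 0.15 (adjusted p = 0.000568, edgeR) came with TMM factors of 1.33 and 1.32 in the wounded and 0.782 and 0.731 in the unwounded libraries. It did not pass with DESeq2 (adjusted p = 0.0513, log2 fold change -0.59), with all libraries thinned to the smallest total (-0.13, adjusted p = 0.480, edgeR), or without wounded replicate 2 (-0.47, adjusted p = 0.0559, edgeR).

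Among the transcription factors of the bulge, Nfatc1 lies on chromosome 18 (80606205 to 80713071, minus strand, 107 kb). It had 47.9 and 43.7 CPM in wounded skin, or 0.814 and 0.803 times the length-expected level, against 73.5 and 63.5 CPM in unwounded skin. It fell with a log2 fold change of -1.37 ± 0.17 (adjusted p = 2.21e-05, edgeR). Tbx1 had 5.89 and 4.44 CPM in wounded skin, from 7 and 6 counts, and 12.1 and 12.0 CPM in unwounded skin (-2.01 ± 0.37, adjusted p = 0.000441, edgeR). Sox9, the shortest gene, had 3 and 4 counts in the wounded libraries, or 2.52 and 2.96 CPM, and 5.44 and 6.79 CPM in unwounded skin. The first wounded value equals the 3 counts that a count of 0 would allow, and the ratio of the summed levels, wounded over unwounded, was 0.457 (95% exact interval 0.178 to 0.981, counting error only). Its log2 fold change was -1.91 ± 0.51 (adjusted p = 0.00498, edgeR), and it did not pass with DESeq2 (-1.78, adjusted p = 0.107), with nuclei of at least 400 genes (-1.22, adjusted p = 0.12, edgeR) or without wounded replicate 1 (-1.63, adjusted p = 0.06, edgeR).

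Lhx2, a LIM homeodomain factor of the bulge and hair germ, had the largest rise of the 9. It had 26 and 29 counts, 21.9 and 21.5 CPM, in the wounded libraries against 17 and 14 counts, 2.05 and 2.16 CPM, in the unwounded ones. The log2 fold change was 2.57 ± 0.36 (adjusted p = 6.01e-05, edgeR), and the wounded level was 1.30 and 1.38 times what the length of Lhx2 gives, below the 99th percentile of the nearly silent genes. Cd34, the surface marker, had 13.5 and 16.3 CPM in wounded skin and 117 and 156 CPM in unwounded skin, a ratio of means of 0.109. The log2 fold change was -3.98 ± 0.25 (adjusted p = 2.19e-07, edgeR), and the wounded level was 1.09 and 1.42 times the length-expected one. Fibroblast markers were lower in the same wounded libraries, as given above, and their part in the falls of Cd34, Tcf7l1 and Lgr5 was not tested over all nuclei.

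**Figure D1:**
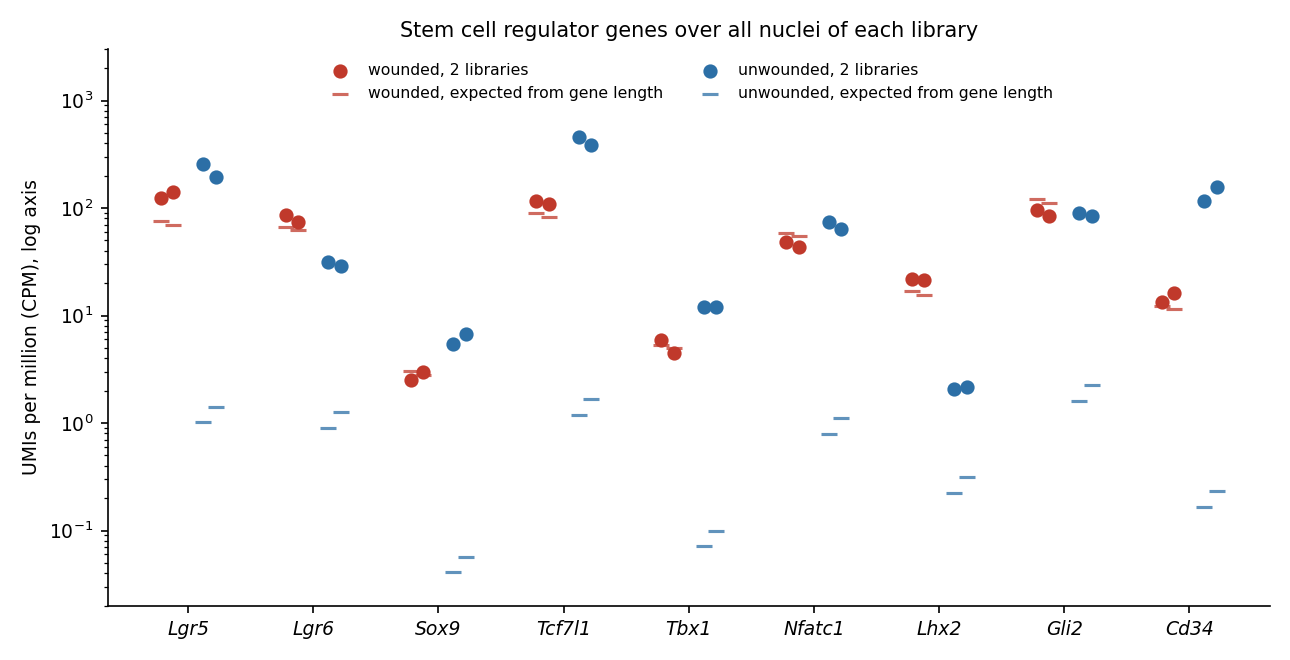
Level of each of the 9 genes over all nuclei (CPM, log axis), 1 point per library, wounded left (red) and unwounded right (blue); short lines give the level expected from gene length. The red points of all 9 genes lie close to their red lines (0.748 to 2.01 times), whereas the blue points lie 6.88 to 705 times above theirs.

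Taken per kilobase of gene, the 9 genes were alike in wounded skin and unlike in unwounded skin. Levels per kilobase ran from 0.381 CPM (Gli2) to 1.02 CPM (Lgr5) in wounded skin and from 0.0675 CPM (Lhx2) to 6.96 CPM (Cd34) in unwounded skin. The receptor genes stood at 0.551 and 0.509 CPM per kilobase in wounded skin and at 0.00736 and 0.0103 CPM per kilobase in unwounded skin. Together the 9 genes summed to 511 and 496 CPM in wounded skin, where length alone gives 450 and 416 CPM, and to 1042 and 933 CPM in unwounded skin, where it gives 6.02 and 8.42 CPM.

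In intact skin each of the 9 genes had its highest mean CPM, among the named classes, in an epidermal, a dermal or the lymphatic class. Nuclei of each group were clustered apart, without the 9 genes, and named from marker lists. Of 23 unwounded clusters, 18 had a name, with 70.1% of the unwounded nuclei. Of 12 wounded clusters, only 3 had a name, with 27.45% of the wounded nuclei. Unnamed clusters held 82% and 71.75% of the UMIs of the wounded libraries, so comparisons by class below leave out most wounded counts. Since the clusters were drawn from the same nuclei, the levels below are descriptions with no test. Lgr5 had 391 and 299 CPM in fibroblast-like nuclei (3225 and 3127 nuclei, clusters 0, 1, 4, 12 and 15), which held 83.0% and 68.5% of all Lgr5 counts, with 54.1% and 44.7% of all UMIs. The next level was 226 and 240 CPM in basal keratinocyte-like nuclei (232 and 268 nuclei, cluster 8), and skeletal muscle-like nuclei had the least, 21.2 and 18.9 CPM. A UMI of Lgr5 was seen in 26.0% and 17.1% of fibroblast-like nuclei and in 5.95% and 7.63% of macrophage-like nuclei, a type not known for Lgr5, at median depths of 1113 and 706 UMIs and of 680.5 and 483 UMIs. With every nucleus thinned to 300 UMIs, these shares were 9.55% and 7.48% against 2.14% and 3.72%.

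Within the fibroblast-like clusters, Lgr5 was uneven. It had 551 and 426 CPM in cluster 0, led by C7 and Col4a3, with Lgr5 itself among its 10 leading genes, 453 and 322 CPM in cluster 12, led by Spag17 and Nxph1, and 372 and 335 CPM in cluster 1. Cluster 4, led by Gria4 and Cdh18, had 171 and 159 CPM, and cluster 15, led by Cadps and Ptchd4, had 79.0 and 38.2 CPM. Cluster 12 also had the highest Cd34 (274 and 275 CPM) and Gli2 (286 and 296 CPM) of the 5 clusters in both libraries. Dermal papilla-like nuclei (62 and 48, cluster 21), the signalling centre at the follicle base, had less Lgr5, 93.5 and 71.7 CPM, than the fibroblast-like nuclei.

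Lgr6 was an epidermal gene, at 318 and 163 CPM in basal keratinocyte-like nuclei and 264 and 181 CPM in suprabasal keratinocyte-like nuclei (251 and 487 nuclei, clusters 6 and 7). Fibroblast-like nuclei had 6.48 and 7.60 CPM. Outside the epidermis, Lgr6 reached 164 and 143 CPM in dermal papilla-like nuclei, from 14 and 8 counts, and 206 and 239 CPM, from 13 and 7 counts, in cluster 20, which stayed unnamed and was led by Tafa1, Adra1a, Itga8, Synpo2, Myocd and Myh11. The last 2 are a smooth muscle transcription cofactor and a smooth muscle myosin. Basal and suprabasal keratinocyte-like nuclei did not differ in Lgr6 beyond the gap between libraries.

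Among the classes, Tcf7l1 and Gli2 were highest in dermal nuclei and Cd34 was broad. Tcf7l1 had 628 and 539 CPM in fibroblast-like, 607 and 556 CPM in dermal papilla-like and 551 and 456 CPM in lymphatic endothelium-like nuclei, 3 classes whose ranges overlapped, and 88.0 and 97.3 CPM in skeletal muscle-like nuclei. Among the classes Gli2 was highest in dermal papilla-like nuclei, at 315 and 179 CPM, against 119 and 120 CPM in fibroblast-like and 91.3 and 139 CPM in basal keratinocyte-like nuclei. Fibroblast-like cluster 12 and a bulge-like sub-cluster of keratinocytes, whose values are given beside them, were at a like or higher level. Cd34 had 150 and 207 CPM in fibroblast-like and 87.5 and 164 CPM in blood endothelium-like nuclei, whose ranges overlapped. Cluster 2, unnamed and led by Sntg1, Rspo2 and Adamtsl3, had 282 and 208 CPM of Cd34.

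Among the classes, Nfatc1 and Tbx1 were highest in lymphatic endothelium-like nuclei (228 and 162, cluster 16), where all 5 lymphatic markers were raised. Nfatc1 had 305 and 235 CPM there, against 128 and 76.9 CPM in basal keratinocyte-like and 98.5 and 78.0 CPM in blood endothelium-like nuclei. Tbx1 had 97.7 and 92.7 CPM in lymphatic endothelium-like nuclei and 51.1 and 43.3 CPM in basal keratinocyte-like nuclei. A small sub-cluster of keratinocyte-like nuclei exceeded both levels, as given with the sub-clusters. By counts, the far more numerous fibroblast-like nuclei held 49.3% and 39.7% of Nfatc1 and 29.0% and 23.1% of Tbx1. Blood and lymphatic endothelium-like nuclei together held 14.3% and 10.5% of Nfatc1 and 25.0% and 19.2% of Tbx1. The follicular genes Sox9 and Lhx2 were rare: Sox9 had 16 and 13 counts, 58.4 and 62.5 CPM, in basal keratinocyte-like nuclei and 36.0 and 38.5 CPM in sebocyte-like nuclei, which exceeded the 28.3 and 25.7 CPM of basal and suprabasal keratinocyte-like nuclei pooled. Lhx2 had 11 and 6 counts, 40.2 and 28.8 CPM, in basal keratinocyte-like nuclei and 3 and 1 counts in all fibroblast-like nuclei.

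**Figure D2:**
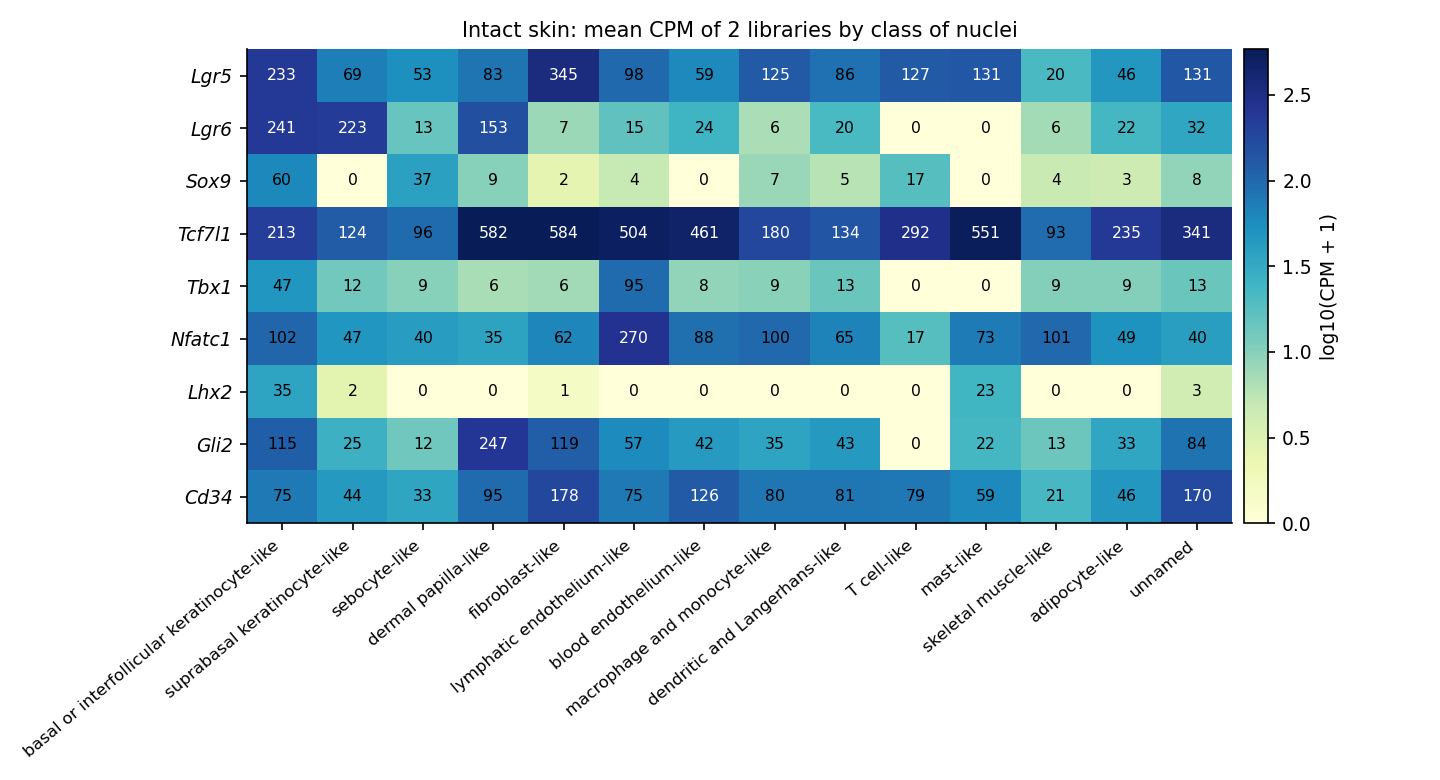
Mean CPM of the 2 unwounded libraries for each of the 9 genes (rows) in each class of nuclei (columns); the colour runs with log10(CPM + 1). Lgr6, Sox9 and Lhx2 are highest in the basal keratinocyte-like class, Nfatc1 and Tbx1 in the lymphatic endothelium-like class, Lgr5, Tcf7l1 and Cd34 in the fibroblast-like class and Gli2 in the dermal papilla-like class.

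The follicular pattern appeared once the 483 and 755 unwounded keratinocyte-like nuclei were clustered again, also without the 9 genes. A sub-cluster of 43 and 39 nuclei had 6 of 7 testable bulge and outer root sheath markers raised (Krt15, Foxc1, Fgf18, Dkk3, Barx2 and Trps1), though none of them was among its 10 leading genes. Raised refers to both libraries pooled: Krt15 had 148 and 529 CPM there against 125 and 109 CPM in the other keratinocyte-like nuclei, and Foxc1, Fgf18 and Dkk3 had 1 count each in library 2. Those 10 were led by Fras1, Chat and Sorcs3 and held the melanocyte gene Dct, whose 27 counts came from 3 nuclei of unwounded library 1; Dct, Pmel, Tyr and Mlana were all at 0 in the 39 nuclei of library 2, and Pmel was also at 0 in library 1. In these bulge-like nuclei each of the 9 genes had a higher level than in the other keratinocyte-like nuclei in both libraries. Of these levels, Tbx1 in library 2 (2 counts) and Sox9 in library 1 (3 counts) did not exceed the 3 counts that a count of 0 would allow. Lgr5 had 761 and 681 CPM in bulge-like nuclei against 86.8 and 113 CPM in the others (440 and 716 nuclei). Lhx2 had 106 and 227 CPM, from 5 and 6 counts, against 13.5 and 0 CPM, so that 11 of the 18 Lhx2 counts of keratinocyte-like nuclei lay in the 82 bulge-like ones. Gli2 had 317 and 567 CPM in bulge-like nuclei against 25.1 and 54.3 CPM in the others, and Cd34 had 169 and 378 CPM against 17.4 and 68.9 CPM.

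The remaining genes were less distinct there. Nfatc1 had 296 and 189 CPM in bulge-like nuclei, from 14 and 5 counts, and 57.9 and 62.6 CPM in the other keratinocyte-like nuclei. Tbx1 had 127 and 75.6 CPM, from 6 and 2 counts, against 19.3 and 25.0 CPM. Sox9 had 63.4 and 151 CPM, from 3 and 4 counts, against 25.1 and 18.8 CPM. Tcf7l1 had 317 and 378 CPM against 145 and 154 CPM. Lgr6 had the smallest gap, 381 and 340 CPM in bulge-like nuclei against 282 and 165 CPM in the others. Among those, sub-cluster 1, basal interfollicular-like, had 576 and 343 CPM of Lgr6. That sub-cluster (107 and 134 nuclei) had no count of Sox9 or Lhx2, which allows up to 3 counts, or 25.4 and 34.3 CPM. A sub-cluster of 67 and 53 keratinocyte-like nuclei, led by Grik4, Rgs7, Ctnnd2 and Edar, had 469 and 208 CPM of Lgr6. The marker rule named it sebocyte-like, but none of these leading genes is on the sebocyte list. It is apart from the sebocyte-like class of intact skin, which had 4 and 1 counts of Lgr6.

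**Figure D3:**
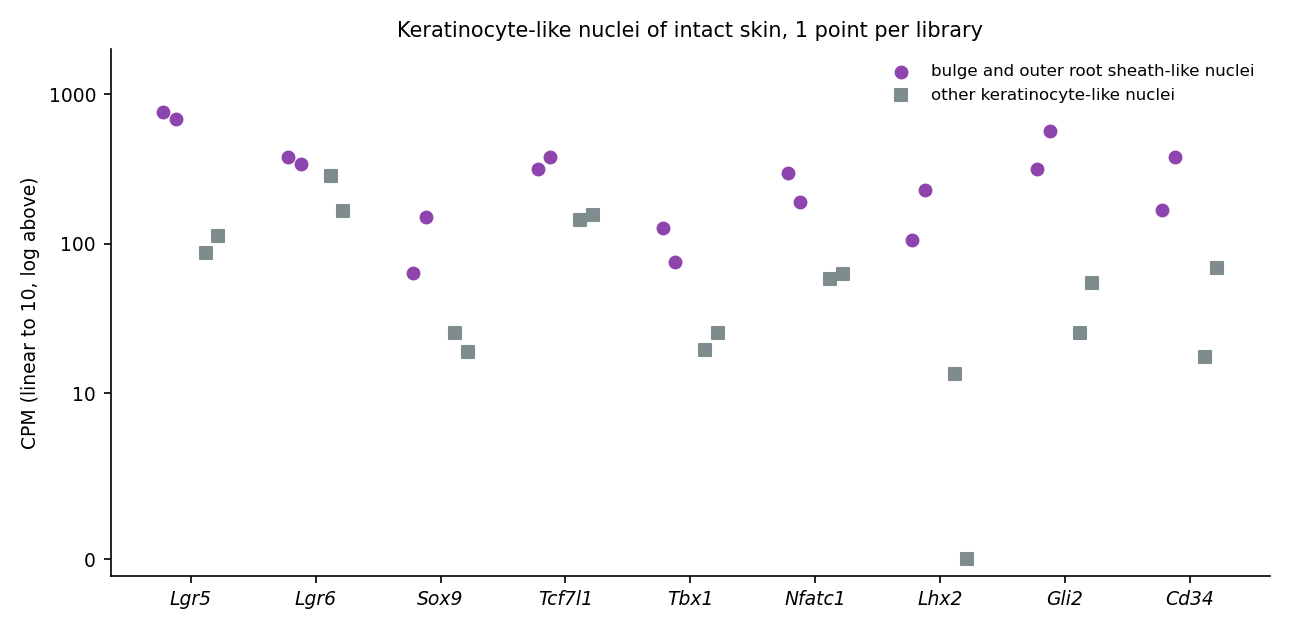
CPM of each of the 9 genes in the bulge and outer root sheath-like sub-cluster (purple circles, 43 and 39 nuclei) and in the other keratinocyte-like nuclei (grey squares, 440 and 716 nuclei) of intact skin, 1 point per library; the axis is linear to 10 and logarithmic above. The circles lie above the squares for all 9 genes, with the widest gaps for Lhx2, Gli2, Lgr5 and Cd34 and the narrowest for Lgr6. The lower circle of Tbx1 rests on 2 counts and that of Sox9 on 3.

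A small unnamed sub-cluster of 23 and 15 keratinocyte-like nuclei, led by Cldn14 and Bmp6 and with 5 of 7 bulge markers raised, differed from the bulge-like one. It had more Nfatc1, 356 and 518 CPM from 8 and 5 counts, above the lymphatic endothelium-like level, as was its Tbx1 at 178 and 104 CPM from 4 and 1 counts. It had Sox9 at 178 and 311 CPM from 4 and 3 counts, but less Lgr6 (44.5 and 0 CPM) and less Lgr5 (178 and 311 CPM). Upper follicle-like nuclei (26 and 29), named from Krt79, Lrig1, Gata6 and Defb6, had 215 and 426 CPM of Lgr6 and 161 and 182 CPM of Lgr5, and their Cd34 was 0 and 60.8 CPM. These sub-clusters hold few nuclei, and most of their values rest on under 10 counts per library.

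Some pairs of the 9 genes were seen in the same nuclei, as a description. Among fibroblast-like nuclei with a UMI of Lgr5, 56.4% and 37.3% also had one of Tcf7l1, against 44.2% and 32.2% of those without. The nuclei with Lgr5 were deeper, with medians of 1512 and 916 UMIs against 1018 and 678 UMIs. In keratinocyte-like nuclei, Tcf7l1 accompanied Lgr5 in 16.4% and 24.0% of nuclei, against 14.5% and 7.94% without Lgr5. Here too the nuclei with Lgr5 were deeper, with medians of 1084 and 644.5 UMIs against 917 and 499 UMIs. Fibroblast markers summed to 4266 and 6449 CPM in the unwounded keratinocyte-like nuclei, and their part in these pairs was not tested. Lgr6 accompanied Lgr5 in 20% and 8% of keratinocyte-like nuclei and was seen in 19.2% and 9.79% of those without Lgr5.

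Across 10 classes of intact skin in 2 libraries (20 points that share their libraries and depth), the genes whose levels ran most alike to each of the 9, by Pearson's r on log2(CPM + 10), were as follows, as a description. Lgr5 ran with Gpc6 (r = 0.931), Enox1 and Vit. Lgr6 ran with Col4a6 (0.952), Ckmt1 and Dsg3, the last a desmosomal cadherin of the epidermis. Sox9 ran with Slain1 (0.915), Calml3 and Acoxl, and Lhx2, counted in only 3 of the classes, with Ckap2 (0.959), Chat and the follicle keratin Krt75. Tcf7l1 ran with Rhoj (0.908) and Ttc28, Gli2 with Klhl29 (0.949), Rbms3 and Dclk1, and Cd34 with Erc2 (0.922), Tmem150c and the matrix protein gene Sparc. Nfatc1 ran with Prox1 (0.846), the master factor of lymphatic vessels, Chrm3 and Nxpe3, and Tbx1 with Il7 (0.878) and Ttpa.

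Within keratinocyte-like nuclei, only 5 of the 9 genes could be tested, and 1 of these 5, Lgr6, fell in wounded skin past the test. The wounded nuclei were those of wounded cluster 9 (137 and 362), with 6 of 8 basal markers raised and Dsp, Dsc3, Col17a1 and Krt16 among the leading genes; the unwounded ones were those of clusters 6, 7 and 8 (483 and 755). Lgr6 had 78.1 and 69.1 CPM in wounded keratinocyte-like nuclei, from 4 and 8 counts, and 290 and 174 CPM in unwounded ones, without overlap. Its log2 fold change was -1.56 ± 0.45 (adjusted p = 0.00377, edgeR), where 45.7% of the 6857 genes tested were called (25.1% higher and 20.6% lower in wounded skin). The split of higher against lower calls was 1720 to 1412, against 778 to 1082 of 5719 genes after subtraction of length-expected counts. Without the filter on low counts it was 2857 to 1393 with DESeq2 (14648 genes with an adjusted p) and 3285 to 2941 of 22893 genes with edgeR. The wounded level was 1.68 and 1.41 times the length-expected one. Marker sums also differed between the groups, in both directions, for layers in which Lgr6 was high in intact skin. Basal markers summed to 7246 and 5245 CPM in wounded and 2919 and 2870 CPM in unwounded nuclei. Suprabasal markers, 7 and 6 of 9 with counts in wounded nuclei (Krt1 at 0 in both), summed to 1445 and 1020 CPM in wounded and 2675 and 3063 CPM in unwounded nuclei. Upper follicle markers, 4 and 5 of 7 with counts (Krt79 and Krt17 at 0 in both), summed to 97.7 and 112 CPM in wounded and 491 and 380 CPM in unwounded nuclei. Sebocyte markers, 5 and 8 of 8 with counts in wounded nuclei, summed to 762 and 1970 CPM in wounded and 645 and 878 CPM in unwounded nuclei. Sebocyte-like nuclei, left out of the unwounded set, held 4 and 1 counts of Lgr6 in intact skin. The part of these markers in the fall of Lgr6 was not tested. Without wounded replicate 2 the log2 fold change was -1.51 and did not pass (adjusted p = 0.0948, edgeR).

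The other 4 of the 5 genes with enough counts did not pass that test. Lgr5 had 117 and 95.1 CPM in wounded and 143 and 142 CPM in unwounded keratinocyte-like nuclei (log2 fold change -0.36 ± 0.42, adjusted p = 0.513, edgeR). Tcf7l1 had 97.7 and 104 CPM in wounded and 159 and 166 CPM in unwounded nuclei (-0.55 ± 0.42, adjusted p = 0.284, edgeR), and Nfatc1 had 39.1 and 25.9 CPM from 2 and 3 counts in wounded and 77.8 and 69.2 CPM in unwounded nuclei (-1.15 ± 0.66, adjusted p = 0.152, edgeR). Gli2 had 58.6 and 86.4 CPM in wounded and 49.5 and 81.1 CPM in unwounded nuclei (0.38 ± 0.53, adjusted p = 0.588, edgeR). Of the 4 left out by the filter, Sox9 and Tbx1 had 1 count each, Cd34 had 3 and Lhx2 none in the 499 wounded nuclei, against 29, 30, 60 and 18 counts in the unwounded ones. The ratio of summed levels, wounded over unwounded, was 0.221 for Sox9 (95% exact interval 0.00542 to 1.33), 0.214 for Tbx1 (0.00524 to 1.29) and 0.321 for Cd34 (0.0644 to 0.984). For Lhx2, 3 counts correspond to 18.0 CPM over the wounded group, above the 16.8 CPM of the unwounded one, so a difference was not detectable at this depth. Of the 8 bulge and outer root sheath markers, 4 and 6 had counts in the wounded nuclei, summing to 430 and 415 CPM against 764 and 670 CPM in the unwounded ones, and Krt15 and Foxc1 were at 0 in both wounded libraries. Fibroblast markers, 6 and 7 of 7 with counts in the wounded nuclei (Lum at 0 in the first library), summed to 391 and 458 CPM in wounded and 4266 and 6449 CPM in unwounded keratinocyte-like nuclei, and basal keratinocyte markers to 7246 and 5245 CPM against 2919 and 2870 CPM. Their part in the values above was not tested beyond leaving out the unwounded sub-clusters led by fibroblast or muscle genes, a choice made after seeing the data; Lgr6 then had a log2 fold change of -1.56 and stayed past the test.

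In clusters with fibroblast genes, Cd34, Tcf7l1, Lgr5 and Gli2 fell and Lgr6 rose in wounded skin. The wounded nuclei were those of cluster 6 (358 and 657), in which 6 of 7 fibroblast markers were raised but the mural cell gene Pdgfrb was also among the leading genes, and the unwounded ones those of clusters 0, 1, 4, 12, 15 and 21 (3287 and 3175). The comparison is thus one of numbered clusters. Here 58.8% of the 12923 genes tested were called (27.5% higher and 31.2% lower in wounded skin), and 5 of the 7 genes with enough counts were among them. The split of higher against lower calls was 3560 to 4036, against 1755 to 3131 of 11174 genes after subtraction of length-expected counts. Without the filter on low counts it was 6404 to 3761 with DESeq2 (21951 genes with an adjusted p) and 6248 to 5773 of 25334 genes with edgeR. Fibroblast markers summed to 2081 and 1920 CPM in the wounded and 14786 and 14279 CPM in the unwounded nuclei, and mural markers, 6 of 6 with counts, to 1557 and 1521 CPM against 372 and 385 CPM; their part in the results was not tested.

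Cd34 had 1 count in each wounded library, 6.80 and 4.33 CPM, against 149 and 205 CPM in the unwounded ones. The ratio of summed levels was 0.0310 (95% exact interval 0.00375 to 0.112, counting error only), and the log2 fold change was -5.46 ± 0.53 (adjusted p = 1.27e-10, edgeR). Tcf7l1 had 184 and 139 CPM in wounded cluster 6 and 627 and 540 CPM in the unwounded clusters (-2.31 ± 0.24, adjusted p = 7.06e-10, edgeR). Lgr5 had 129 and 247 CPM in wounded cluster 6, with a wide gap between the libraries, and 385 and 294 CPM in the unwounded clusters (-1.22 ± 0.25, adjusted p = 8.03e-05, edgeR). Both had levels above what length gives: 3.70 and 2.28 times for Tcf7l1 and 3.08 and 4.81 times for Lgr5, against 0.994 and 0.517 times for Cd34. Those ratios take the receptor genes' density in cluster 6 itself; against the density over all wounded nuclei they were 2.05 and 1.67 for Tcf7l1 and 1.71 and 3.53 for Lgr5. All of them lie below the 99th percentile of the nearly silent genes over all nuclei (5.02 and 5.47).

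Gli2 had 68.0 and 108 CPM in wounded cluster 6 and 122 and 121 CPM in the unwounded clusters (-0.83 ± 0.28, adjusted p = 0.0106, edgeR). It did not pass without wounded replicate 1 (-0.40, adjusted p = 0.283, edgeR) or with clusters drawn at Leiden resolution 2 (-0.15, adjusted p = 0.692, edgeR). Lgr6 had 40.8 and 60.7 CPM in wounded cluster 6, from 6 and 14 counts, and 9.42 and 10.2 CPM in the unwounded clusters, a log2 fold change of 2.00 ± 0.48 (adjusted p = 0.000574, edgeR). That wounded level was 1.10 and 1.33 times the length-expected one, and the change was 0.59 (adjusted p = 0.616, edgeR) after length-expected counts were subtracted and 1.78 (adjusted p = 0.0686, edgeR) without wounded replicate 2. Nfatc1 (-0.58 ± 0.34, adjusted p = 0.149, edgeR) and Tbx1 (-0.69 ± 1.04, adjusted p = 0.583, edgeR) did not pass. Lhx2, with 0 and 5 wounded counts against 3 and 1 unwounded ones, and Sox9, with none against 5 and 7, had too few counts for the test.

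The difference between both sets of nuclei was itself tested, a choice made after seeing the data, in a fit with the library as a block, in which 5.99% of 9917 genes were called. The effect of wounding in keratinocyte-like nuclei minus that in the fibroblast-gene clusters was -3.83 ± 0.62 on the log2 scale for Lgr6 (adjusted p = 0.000298, edgeR). It did not pass for the other 6 genes tested, among them Tcf7l1 (1.55, adjusted p = 0.0733) and Cd34 (3.64, adjusted p = 0.204, edgeR).

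**Figure D4:**
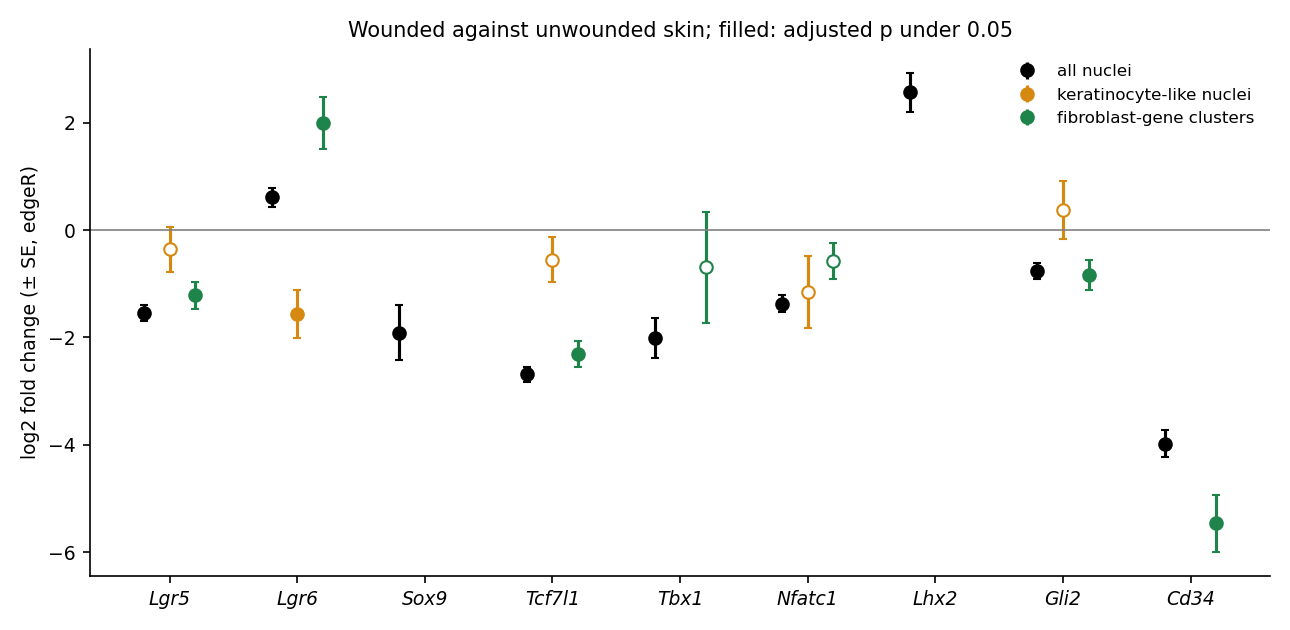
Log2 fold change, wounded over unwounded, with its standard error (edgeR), for each of the 9 genes over all nuclei (black), keratinocyte-like nuclei (orange) and clusters with fibroblast genes (green); filled points have an adjusted p under 0.05, and genes filtered out have no point. Lgr6 lies at -1.56 in keratinocyte-like nuclei and at 2.00 in clusters with fibroblast genes, and Cd34 has the lowest points.

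The pathways around these genes were followed through 4 lists, 85 genes in all, over all nuclei. Of the 79 with enough counts, 42 fell and 21 rose in wounded skin, 63 called beside the 84.2% of all genes called (37.3% lower and 46.9% higher). Their median log2 fold change was -1.12 against 0.39 for all genes. Of the Wnt and R-spondin list, 29 of 32 were tested, 14 fell and 11 rose. The Wnt co-receptor gene Lrp6 had 78.2 and 68.8 CPM in wounded and 245 and 221 CPM in unwounded skin (-2.45 ± 0.14, adjusted p = 1.33e-07, edgeR), and Tle1 (-2.70), a co-repressor of TCF factors, Tcf7l2 (-2.12) and Ctnnb1 (-2.84), the gene of beta-catenin, also fell. Of the Hedgehog list, 11 of 13 were tested, 5 fell and 1 rose. The receptor-side genes Smo (-2.38), Cdon (-2.38) and Boc (-2.26) fell. Hhip, a ligand-binding inhibitor, had 70.6 and 75.5 CPM in wounded and 3.87 and 3.09 CPM in unwounded skin (3.59 ± 0.24, adjusted p = 3.39e-07, edgeR), at 1.39 and 1.61 times its length-expected level in wounded skin.

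Of the BMP and calcineurin-NFAT list, 19 of 20 were tested, 15 fell and 2 rose, where 37.3% of all genes were called lower and 46.9% higher. The median log2 fold change of this list was -1.95. The calcineurin catalytic subunit genes Ppp3ca (-2.50) and Ppp3cb (-3.64) and the BMP receptor genes Bmpr1a (-1.95) and Bmpr2 (-1.78) fell. Ppp3ca had 192 and 242 CPM in wounded and 705 and 717 CPM in unwounded skin. All 20 other bulge, isthmus and hair germ genes were tested, of which 8 fell and 7 rose, with a median of -0.08. Lrig1, a brake on growth factor receptors in isthmus cells, had 39.5 and 30.4 CPM in wounded and 209 and 202 CPM in unwounded skin (-3.35 ± 0.17, adjusted p = 5.52e-08, edgeR). The transcription factor genes Nfia (-3.06), Trps1 (-2.28) and Nfib (-2.21) also fell. In the wounded libraries, the genes named as falling in the 4 lists lay between 0.453 (Ppp3cb) and 2.87 (Smo) times their length-expected level.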

How the data were processed

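RNA of single nuclei from back skin was counted in droplets with 10x Genomics 3' chemistry, per the labels' protocols. The authors deposited raw UMI counts per gene and barcode, with GRCm38 as the genome and Cell Ranger 5.0.1 as the tool, per the submitters' processing notes. Which annotation release was used, and whether intronic reads were counted, is not given in the sources used here. Gene coordinates and lengths (start to end) came from GENCODE vM21.

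Barcodes under 200 genes or over 5% mitochondrial UMIs were dropped. Scrublet (scanpy 1.11.5) marked 0 to 0.461% of the remaining barcodes automatically, so the highest scores were removed at 0.8% per 1000 deposited barcodes. This took 88 and 624 barcodes from the wounded libraries and 388 and 769 from the unwounded ones. Joint clustering parted the groups (98.9% of wounded barcodes lay in mostly wounded clusters), so each group was clustered apart, a choice made after seeing this; the naming rule (at least 3 markers and 40% of a list, 2-fold above the other clusters) was also revised then. Counts were summed per library and tested with edgeR 4.0.16 (filterByExpr, TMM, quasi-likelihood test, Benjamini-Hochberg, threshold 0.05); DESeq2 1.42.0 was an alternative. The p-values of edgeR rest on the spread between 2 mice a group, with each gene's spread drawn toward that of all genes tested. An exact permutation of 2 against 2 mice could give no p below 0.333. The SE printed with edgeR was derived from the log2 fold change and the F statistic of its test. The scripts were tested on simulated data. A count of 0 was read as at most 3 counts, which is 2.52 and 2.22 CPM in the wounded and 0.363 and 0.463 CPM in the unwounded libraries; intervals and floors cover counting error only. The wounded libraries differed by a chi-square per gene of 2.15 and the unwounded ones by 12.5, so no library was a copy. Named beside the 9 genes were the 4 genes of smallest p of each list and the 3 genes most alike to each, of which 2 are not reported here. The genes, lists and tests were chosen with earlier results of these data known. Alternatives were other scaling, filters, barcodes, clusterings, thinning, subtraction of length-expected counts and leaving out each library.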

Additional observations from a re-analysis of the deposited data

Results flagged for a closer look

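The effect of wounding on Lgr6 differed between keratinocyte-like nuclei and clusters with fibroblast genes. Lgr6 had 78.1 and 69.1 CPM in wounded and 290 and 174 CPM in unwounded keratinocyte-like nuclei, whereas it had 40.8 and 60.7 CPM in wounded and 9.42 and 10.2 CPM in unwounded nuclei of the fibroblast-gene clusters. The log2 effect in keratinocyte-like nuclei minus that in the fibroblast-gene clusters was -3.83 ± 0.62 (SE; edgeR with the library as a block, adjusted p = 0.000298, 2 libraries a group), and 5.99% of the 9917 genes tested in this way were called. This test was added after the data were seen. In both sets the wounded level lay between 1.10 and 1.68 times the level expected from gene length, and the part of that level in the difference was not tested. None of the other 6 genes tested passed (lowest adjusted p = 0.0733, Tcf7l1, edgeR); Tcf7l1 and Cd34 had an unadjusted p under 0.05, 0.00548 and 0.0296.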

How the results depend on the processing

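Of the 9 genes over all nuclei, between 6 and 9 passed under every alternative run, and 2 other clustering resolutions and thinning left the leading broad family of each of the 9 genes in place (keratinocyte-like nuclei pooled, so that sebocyte-like nuclei lead for Sox9, and dermal papilla-like nuclei not ranked, so that fibroblast-like nuclei lead for Gli2). In keratinocyte-like nuclei the number called was 1 in the main test, 3 with length-expected counts subtracted, 5 with no filter on low counts and 0 to 1 when a replicate was left out (0 without wounded replicate 2). In the fibroblast-gene clusters it was 4 to 7 against 5. Lgr6 over all nuclei turned to -0.24 with length-expected counts subtracted. Gli2 in keratinocyte-like nuclei, 0.38 and not called, was -0.0304 with DESeq2, -0.0659 and -0.0615 at Leiden resolution 0.5 and 2, -7.19 after that subtraction, -0.34 with no filter, and -0.10 to 0.69 when a replicate was left out. In the fibroblast-gene clusters Nfatc1 was 0.0227 at Leiden resolution 2, and Tbx1, on 2 wounded counts, was -7.04 to 0.21 when a replicate was left out. The causes were not tested. A fit with the replicate number as a block called 9 of the 9 genes over all nuclei, 1 in keratinocyte-like nuclei, 5 in the fibroblast-gene clusters and 65 of the pathway genes against 63; replicates of the same number shared only a number (r = 0.0434 between their deviations), so no pairing was used. Depth limits the wounded sets most: 3 counts were 58.6 and 25.9 CPM in keratinocyte-like nuclei and 20.4 and 13 CPM in cluster 6.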

Other observations

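Among classes the report did not describe, mast cell-like nuclei of intact skin (40 and 28) had 693 and 409 CPM of Tcf7l1 from 48 and 9 counts, against 628 and 539 CPM in fibroblast-like nuclei. Skeletal muscle-like nuclei (213 and 244) had 55 and 44 counts of Nfatc1, 83.4 and 119 CPM, and held 9.05% and 10.7% of all Nfatc1 counts, with 7.97% and 5.71% of all UMIs. A sub-cluster of 41 keratinocyte-like nuclei (20 and 21), led by Anln, Ect2 and Cenpf, had 539 and 191 CPM of Lgr6 from 14 and 3 counts.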
